A study of Mus musculus with 4 samples.

Results

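The genes described are the oxidases that make superoxide and hydrogen peroxide in gut epithelium and in phagocytes, together with partner proteins and 1 epithelial peroxidase. They are Duox2, Duoxa2, Nox1, Noxo1, Nox4, Cybb, Cyba, Ncf1 and Gpx2, which make up 9 of the 30792 genes named on the array. They were chosen by symbol, as features whose platform annotation gives a single gene, and each of the 9 matched 1 feature. The measurements are log2 values from Clariom D mouse arrays, whole-transcript arrays hybridised with total RNA, with 1 array for each of 4 groups. All cells were collected from the small intestine of mice carrying Lgr5GFP-CreERT2, an allele that puts GFP and an inducible Cre under control of Lgr5, a receptor gene active in crypt base stem cells. The collection protocol gives an age of 8 weeks.

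The first group was GFP-negative non-stem cells of wild-type genotype and the second GFP-positive stem cells of wild-type genotype. The third was GFP-positive cells with mutated LncGata6, a long noncoding RNA transcribed beside Gata6. The fourth was GFP-positive Ehf-/- cells, which lack an ETS transcription factor of epithelia. How the LncGata6 mutation was made, whether Cre was induced and how many animals went into each array are not given in the sources used here. With 1 array in each group no difference has an error or a test, and every comparison below is between 2 arrays. The same collection text, attached to all 4 samples, names ILCreg sorting, a gate for innate lymphoid cells, so the gate behind the arrays is uncertain.

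NADPH oxidases carry electrons across a membrane and hand them to oxygen. Duox2 needs the maturation factor Duoxa2 to reach the cell surface, where the pair releases hydrogen peroxide toward the gut lumen. Nox1, an oxidase of epithelium, is organised by Noxo1 and activated by Noxa1, whereas Cybb, the catalytic subunit of phagocytes, is switched on by the cytosolic organiser Ncf1 with Ncf4 and Rac2. Cyba is the membrane subunit shared by Nox1, Nox4 and Cybb, and Nox4 is an oxidase that is active without cytosolic organisers and is best known from kidney. Gpx2 is the glutathione peroxidase of gut epithelium, which removes hydrogen peroxide.

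A value was taken as readable when it reached the control limit, the 95th percentile of the negative control features on its own array. That limit was 5.16 for non-stem cells, 5.62 for wild-type stem cells, 5.31 for the LncGata6 mutant and 5.19 for the Ehf knockout. A gene is called higher or lower where the 2 values differ by at least 1 on the log2 scale, which is 2-fold, and the brighter one reaches its limit. Folds are brighter over dimmer, and where the dimmer value lay under its limit the fold was taken from that limit and is a lower bound, written "at least". The level of one gene cannot be set against that of another, because features differ in how strongly they bind.

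The arrays were read against cell type markers before the oxidases, since several went against their labels. The value of Lgr5 was 9.41 for wild-type stem cells and under the limit elsewhere, at 3.03 (non-stem), 3.03 (LncGata6 mutant) and 2.79 (Ehf knockout). On the Ehf knockout array 0 of 10 general epithelial markers and 0 of 11 enterocyte markers reached the limit, while 12 of 12 neutrophil markers did. On the LncGata6 mutant array all 11 enterocyte markers and 8 of 9 T cell and intraepithelial lymphocyte markers were called higher than on the wild-type stem array. All 10 kidney tubule and all 8 hepatocyte markers reached the limit on the non-stem array. So did 9 of 10 general epithelial and all 11 enterocyte markers, the latter with a median of 8.38 against 6.79 on the wild-type stem array. The arrays are named by their labels throughout, and leaving one out removes its group, so no comparison can be repeated without it. In RNA from sorted pools, fewer cells of a type and less RNA per cell cannot be told apart.

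**Figure D1:**
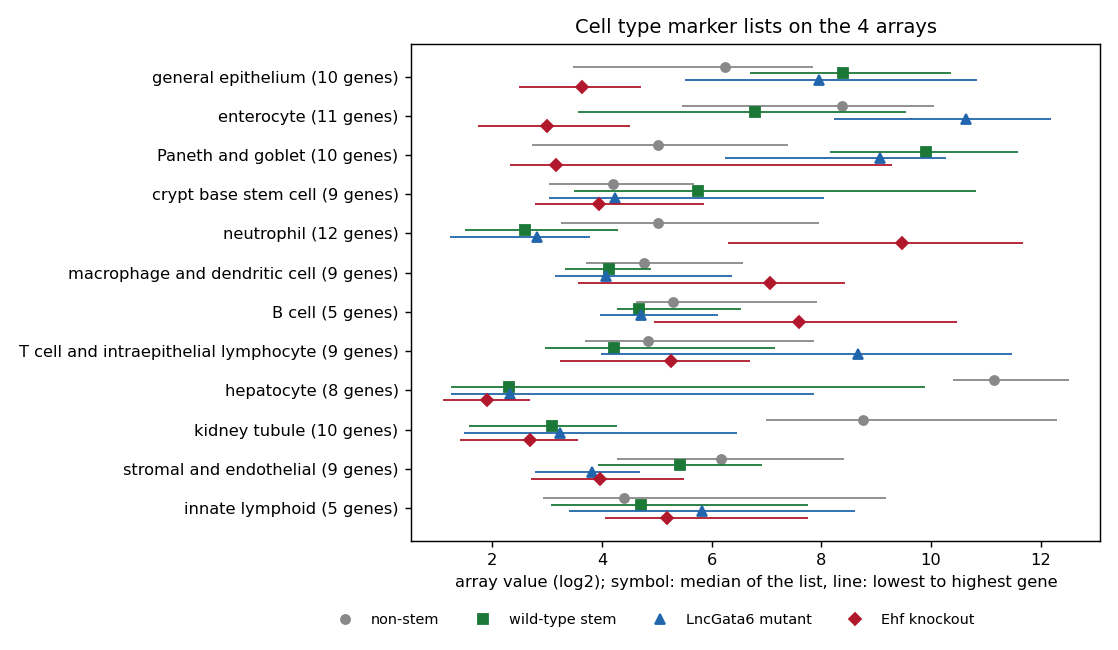
Array values (log2, horizontal axis) of cell type marker lists on the 4 arrays, with a symbol at the median of each list and a line from its lowest to its highest gene. The Ehf knockout array is low in the epithelial lists and high in neutrophil markers (median 9.47), the LncGata6 mutant array is high in enterocyte (10.6) and T cell (8.68) markers, and the non-stem array is high in hepatocyte (11.1) and kidney tubule (8.76) markers.

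The members fell into 3 patterns over the arrays. Duox2, Duoxa2 and Gpx2 reached the limit on the LncGata6 mutant and wild-type stem arrays only. General epithelial markers were highest on those arrays (medians 7.95 and 8.39). They were lower but mostly readable on the non-stem array (median 6.25), where these members were not. Cybb and Ncf1 were highest on the Ehf knockout array, where neutrophil markers were high, and Cyba was high there and on the non-stem array. Nox4 reached the limit on the non-stem array only, and Nox1 and Noxo1 reached it on none of the 4.

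**Figure D2:**
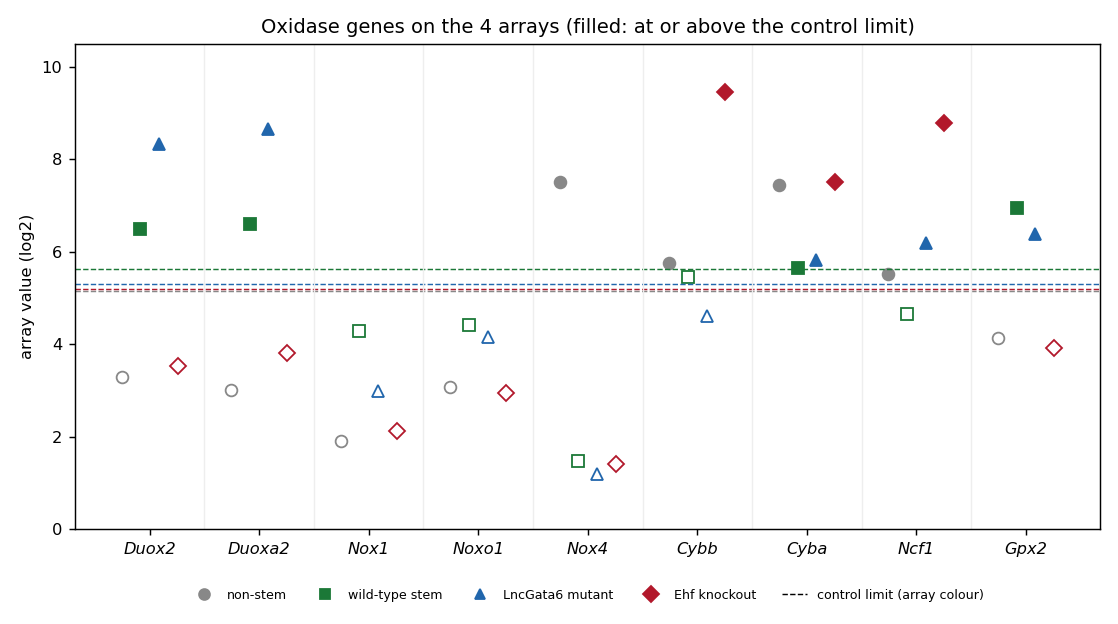
Array values (log2, vertical axis) of the 9 oxidase genes, with 1 point for each array. Filled symbols reach the control limit of their array, drawn as a dashed line in the colour of the array. Duox2 and Duoxa2 peak on the LncGata6 mutant array at 8.33 and 8.67, and Cybb and Ncf1 on the Ehf knockout array at 9.47 and 8.79.

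Duox2 and Duoxa2 lie head to head on chromosome 2, and their upstream sequences are shown because the 2 genes had nearly the same pattern. RefSeq places Duox2 at 122279246 to 122298740 on the minus strand and Duoxa2 at 122298900 to 122302885 on the plus strand (GRCm38.p6), with 159 bases between the genes. In the RefSeq promoter table the start sites are 673 bases apart, the Duox2 site being inside the span of the gene. The 250 bases before each start site are printed 5′ to 3′ on the strand of the gene, Duox2 from chr2:122298228-122298477 and Duoxa2 from chr2:122298650-122298899. Capitals mark matches to any of 9 motifs searched on both strands.
Duox2: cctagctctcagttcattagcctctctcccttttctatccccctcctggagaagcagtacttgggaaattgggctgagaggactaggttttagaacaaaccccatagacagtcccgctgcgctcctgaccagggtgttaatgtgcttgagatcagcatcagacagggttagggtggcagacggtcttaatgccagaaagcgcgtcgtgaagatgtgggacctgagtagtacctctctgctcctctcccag
Duoxa2: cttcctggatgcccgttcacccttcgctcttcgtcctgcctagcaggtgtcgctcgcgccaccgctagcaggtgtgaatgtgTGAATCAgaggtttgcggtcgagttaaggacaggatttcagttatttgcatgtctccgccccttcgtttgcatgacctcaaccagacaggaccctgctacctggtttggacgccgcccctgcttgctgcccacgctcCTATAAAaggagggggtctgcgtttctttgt
For AP-1 the letters searched were TGANTCA, where N is any base. Those for the intestinal factor CDX were TTTATNG, and the TATA box was searched as TATAAA. The interferon response element ISRE was GAAA followed after any 2 bases by another GAAA, and the NF-kB motif was GGGA followed after any 4 bases by CC. The GATA factors were searched as AGATAA. ETS factors were searched with CCGGAAG and, for the PU.1 type found in blood cells, with GAGGAAG. The NRF2 element was TGAC followed after any 3 bases by GC. In the Duoxa2 window the AP-1 letters start at -168 from the start site, counting the base before it as -1. A CDX match on the minus strand starts at -31 and overlaps the TATA letters, which start at -30. The AP-1 letters occur in 6.75% of all 32851 upstream windows of this length, the CDX letters in 9.81% and the TATA letters in 12.4%. None of the 9 motifs was matched in the Duox2 window, which says only that these letters are not in it. That window lies wholly inside the span of Duox2, while the 159 bases between the genes lie in the Duoxa2 window. The AP-1 match at -168 falls within the span of Duox2 too, so the matches cannot be assigned to 1 of the 2 genes.

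Duox2 read 3.29 in non-stem cells, 6.49 in wild-type stem cells, 8.33 in the LncGata6 mutant and 3.53 in the Ehf knockout. Duoxa2 read 3.0, 6.60, 8.67 and 3.82 in the same order. Both were highest on the LncGata6 mutant array, next on the wild-type stem array, and under the limit on the other 2, whose order therefore cannot be read. On the wild-type stem array Duox2 was at least 2.51-fold and Duoxa2 at least 2.72-fold above the non-stem array. In that comparison 9 of 10 general epithelial markers were higher as well, with a median fold of at least 3.35. All 10 Paneth and goblet cell markers were higher too (at least 21.5). Of 11 enterocyte markers 1 was higher and 5 were lower, with a median difference of -0.57. The part of these cell types in the higher values of Duox2, Duoxa2 and Gpx2 was not tested. The LncGata6 mutant array stood above the wild-type stem array by 1.85 for Duox2 (3.60-fold) and by 2.06 for Duoxa2 (4.18-fold), all 4 values being readable. The Ehf knockout array was lower than the wild-type stem array by at least 2.45-fold for Duox2 and at least 2.66-fold for Duoxa2.

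After each profile was centred on its own mean over the 4 arrays, the gene nearest to Duox2 among 7352 readable named genes was Duoxa2, with a largest deviation on any array of 0.40 (log2). Next were Arl14, a small GTPase of the ARF family (0.60), and Muc3, a membrane mucin of enterocytes (0.61). For Duoxa2 the nearest after Duox2 were Nts, the neurotensin precursor (0.71), and Arl14 (0.78). Likeness over 4 arrays is a description of these arrays and covers many genes that share their makeup of cells. Beside the Duox pair, all 11 enterocyte markers were called higher on the LncGata6 mutant array than on the wild-type stem array, by a median of at least 8.77-fold. They include the peptide transporter Slc15a1 (10.4 against 5.38) and lactase, Lct (9.27 against 4.24). Of 10 general epithelial markers 1 was higher and 4 were lower, with a median of 0.05. Paneth and goblet cell markers went the other way, with 1 of 10 higher and 7 lower (median -1.45). Of 9 crypt base stem cell markers 0 were higher and 4 lower (median -1.13). The part of cell makeup in the Duox difference was not tested.

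Gpx2 read 4.12 in non-stem cells, 6.95 in wild-type stem cells, 6.39 in the LncGata6 mutant and 3.93 in the Ehf knockout. It reached the limit in wild-type stem cells and in the LncGata6 mutant, whose arrays differed by less than 2-fold (1.47-fold). The wild-type stem array was at least 3.47-fold above the non-stem array and at least 3.40-fold above the Ehf knockout array. The Duox pair was called higher on the LncGata6 mutant than on the wild-type stem array, whereas Gpx2 differed by -0.56 and was not called. The nearest profiles were those of the claudin Cldn23 (largest deviation 0.08), the tetraspanin Tspan8 (0.19) and the AP-1 subunit Jun (0.30).

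Gpx2 on chromosome 12 (76792335 to 76795554) has a related pseudogene, Gpx2-ps1, on chromosome 7. The feature assigned to Gpx2-ps1 read 5.06, 8.81, 8.05 and 3.24 in the same array order, so it had the same arrays above the limit as Gpx2. Whether the features of the gene and the pseudogene bind the same RNA was not tested, and the values of Gpx2 carry that uncertainty.

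Nox1, on the X chromosome, read 1.89 in non-stem cells, 4.29 in wild-type stem cells, 2.98 in the LncGata6 mutant and 2.13 in the Ehf knockout. Noxo1, on chromosome 17, read 3.08, 4.42, 4.15 and 2.94. Their activator Noxa1, from the list of partners, read 3.25, 5.36, 4.29 and 3.04. Each of the 3 had its highest value on the wild-type stem array, but all 12 values lay under the control limits, so no difference is called and no fold is given. At these limits the 3 genes were therefore not detectable, which does not show that they are absent. The wild-type stem value of Noxa1 (5.36) did exceed the 75th percentile of that array (4.97), which was kept as an alternative limit.

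Nox4 on chromosome 7 (87244430 to 87398710) read 7.50 in non-stem cells, 1.47 in wild-type stem cells, 1.18 in the LncGata6 mutant and 1.41 in the Ehf knockout. Only the non-stem value was readable, and the wild-type stem array was at least 3.68-fold lower. The GFP-positive arrays differed among themselves by at most 0.29, all far under their limits. The profiles nearest to Nox4 were those of Fah, an enzyme of tyrosine breakdown (largest deviation 0.07), the organic anion transporter Slco1a6 (0.11) and the sulfotransferase Sult2a8 (0.15). Like Nox4, these 3 were readable on the non-stem array only, so their likeness rests on 1 readable value each. Kidney tubule markers moved with it. All 10 were called lower on the wild-type stem array, by a median of at least 8.78-fold, and 0 of 10 were readable there. Among them were Kap, an androgen-regulated tubule protein (12.3 against 1.58), and the uromodulin gene Umod (10.1 against 1.85). Of 8 hepatocyte markers 7 were called lower as well, while Cps1 differed by -0.52. The part of kidney and liver RNA in the Nox4 value was not tested.

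Cybb and Ncf1 are shown with their upstream sequences because both were highest on the Ehf knockout array. Cybb lies on the X chromosome (9435252 to 9487766) with its RefSeq start site inside that span, and Ncf1 on chromosome 5 (134220053 to 134229628), both on the minus strand. The 250 bases before the start site are chrX:9469325-9469574 and chr5:134229626-134229875 (GRCm38.p6), printed on the strand of the gene with the same 9 motifs in capitals.
Cybb: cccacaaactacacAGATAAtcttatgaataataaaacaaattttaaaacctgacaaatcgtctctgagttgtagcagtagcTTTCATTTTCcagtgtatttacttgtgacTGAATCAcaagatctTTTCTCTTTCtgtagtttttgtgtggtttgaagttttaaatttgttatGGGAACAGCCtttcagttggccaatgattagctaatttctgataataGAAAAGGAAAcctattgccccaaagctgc
Ncf1: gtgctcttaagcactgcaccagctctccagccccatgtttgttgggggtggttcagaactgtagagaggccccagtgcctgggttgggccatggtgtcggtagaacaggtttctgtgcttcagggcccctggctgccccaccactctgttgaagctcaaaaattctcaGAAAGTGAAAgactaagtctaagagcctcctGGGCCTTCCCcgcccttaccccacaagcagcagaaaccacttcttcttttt
In the Cybb window the ISRE letters matched at -168 and -124 on the minus strand and at -29 on the plus strand, and the AP-1 letters at -139. Its other capitals are GATA letters at -236 and NF-kB letters at -76. The Ncf1 window held 1 ISRE match at -82 and 1 NF-kB match at -51. ISRE letters occur in 2.98% of all upstream windows and in 2 of the 9 members, these 2, while NF-kB letters occur in 17.6% and in 4 of 9. A match is a description of the letters and shows no binding.

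Cybb read 5.75 in non-stem cells, 5.44 in wild-type stem cells, 4.60 in the LncGata6 mutant and 9.47 in the Ehf knockout. The Ehf knockout array stood far above the other 3, of which only the non-stem value reached its limit. It was at least 14.3-fold above the wild-type stem array and at least 17.8-fold above the LncGata6 mutant array. Ncf1 read 5.51, 4.66, 6.18 and 8.79 in the same order. The Ehf knockout array was at least 8.96-fold above the wild-type stem array and 6.09-fold above the LncGata6 mutant array.

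Ncf1 and Cybb parted on the LncGata6 mutant array. Ncf1 was called higher there than on the wild-type stem array, by at least 1.47-fold, whereas Cybb differed by -0.84 with both values under the limits. The nearest profiles to Ncf1 were those of the leukocyte integrin Itgb2 (largest deviation 0.28), the Fc receptor adaptor Fcer1g (0.40) and Arhgdib, a gene of blood cells (0.44). Nearest to Cybb were the ficolin Fcnb (0.28), the leukotriene pathway gene Alox5ap (0.34) and the neutrophil protease Ctsg (0.43), of which Fcnb and Ctsg were readable on the Ehf knockout array only.

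Cyba was the only member readable on all 4 arrays. It read 7.46 in non-stem cells, 5.65 in wild-type stem cells, 5.82 in the LncGata6 mutant and 7.52 in the Ehf knockout. The non-stem and Ehf knockout arrays were high and close together, and the other 2 were low and close together, the wild-type stem value lying just above its limit of 5.62. The wild-type stem array was 3.49-fold below the non-stem array and 3.66-fold below the Ehf knockout array. The LncGata6 mutant and wild-type stem arrays differed by 1.12-fold. Nearest in profile were the ficolin Fcna (0.07), Dennd5a (0.15) and Nt5dc2 (0.17), all 3 under the limits on the LncGata6 mutant and wild-type stem arrays.

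Beside the phagocyte members, blood cell markers were high on the Ehf knockout array. Against the wild-type stem array 12 of 12 neutrophil markers were called higher, by a median of at least 14.4-fold, as were 6 of 9 macrophage and dendritic cell markers (at least 2.72-fold over the list) and 4 of 5 B cell markers (at least 3.91-fold). The neutrophil calprotectin genes S100a8 and S100a9 read 11.4 and 11.7 there, against 1.51 and 2.92. On the non-stem array 6 of 12 neutrophil and 3 of 9 macrophage markers reached the limit, with S100a9 at 7.96 and Csf1r at 6.57. On the wild-type stem array 0 of 12 and 0 of 9 did, and on the LncGata6 mutant array 0 of 12 and 1 of 9, the 1 being Fcer1g. Lymphocyte markers were high on the LncGata6 mutant array, where Ncf1 and Rac2 were called higher. Of 9 T cell and intraepithelial lymphocyte markers 8 reached the limit there and 8 were called higher than in wild-type stem cells, while the Ehf knockout array had 4 higher and 2 lower. The part of blood cells in the values of Cybb, Ncf1 and Cyba was not tested.

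Counted over the members, 3 of 9 were called higher and 2 lower for wild-type stem against non-stem cells, beside 3.03% and 7.28% of all 30792 genes (10.3% in either direction). For the LncGata6 mutant against the wild-type stem array the counts were 3 higher and 0 lower, beside 2.59% and 2.55% (5.13%). The Ehf knockout array against the wild-type stem array gave 3 higher and 3 lower, beside 2.17% and 3.74% (5.91%). Between the LncGata6 mutant and Ehf knockout arrays 3 were higher and 3 lower, beside 5.48% and 3.05% (8.53%). The median difference of the 9 was 1.35, -0.27, -1.48 and 0.85 in these 4 comparisons, beside -0.11, -0.06, -0.20 and 0.13 over all genes. Each of these member medians is the difference of Noxo1 or, in the last, of Nox1, whose values lay under the limits, so the medians cannot be read as a shift of the group. With the stricter limit of the 99th percentile of the negative controls, 0 of the 5 calls between wild-type stem and non-stem cells held, and 2 of the 6 between the Ehf knockout and wild-type stem cells, those of Cybb and Ncf1. Duox2 and Duoxa2 stayed called higher in the LncGata6 mutant under that limit, and Ncf1 did not. At 4-fold only Duoxa2 of these 3 stayed called. The comparisons share arrays, so they are not independent of each other. The members were picked as known epithelial and phagocyte genes, and most genes on the array were not readable, so the shares describe the background and do not test the list.

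**Figure D3:**
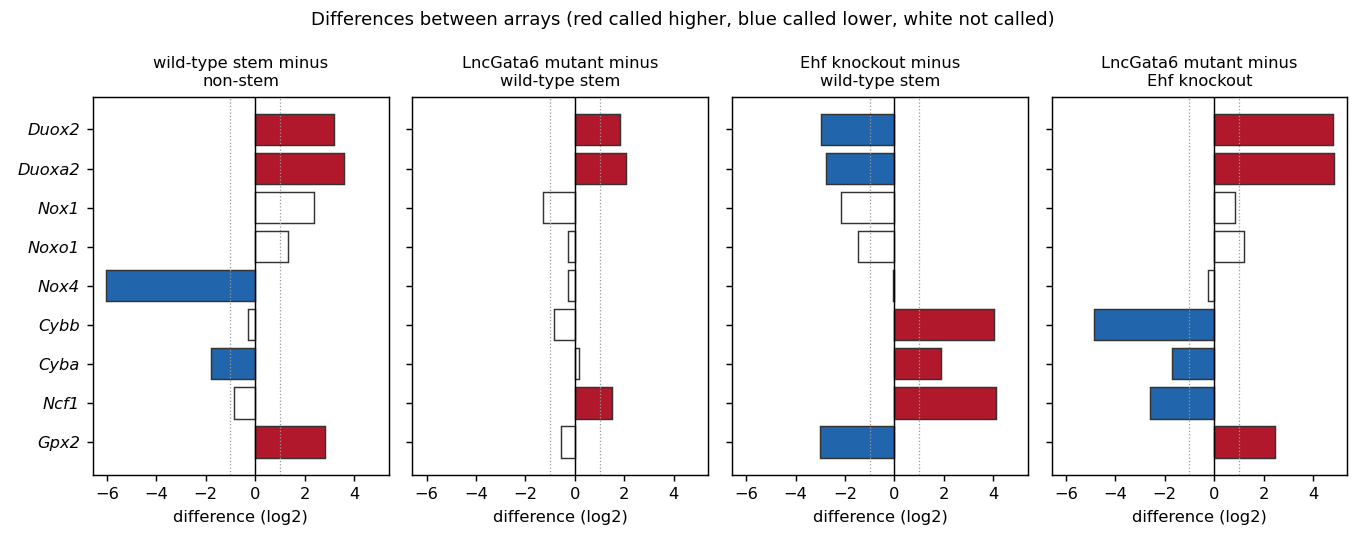
Differences between 2 arrays (log2, horizontal axis) for the 9 oxidase genes in the 4 comparisons, with dotted lines at 1 and -1. Red bars are called higher, blue bars lower and white bars are not called. Duox2, Duoxa2 and Gpx2 lie opposite to Cybb, Cyba and Ncf1 in both comparisons with the Ehf knockout array, and Nox4 differs by -6.03 between the wild-type stem and non-stem arrays.

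Further subunits and helpers of the oxidases were called mainly on the Ehf knockout array. Beside this and the next lists, the shares of all genes called were 10.3%, 5.13%, 5.91% and 8.53% in the 4 comparisons. In lists this short a count of 0 is therefore no result about the list. Of 9 measured partners, 0 were called between the wild-type stem and non-stem arrays. On the Ehf knockout array 3 were higher than on the wild-type stem array and 0 lower. They were Rac2, the Rac GTPase of blood cells (9.36 against 5.81, 11.7-fold), the cytosolic oxidase subunit Ncf4 (6.34 against 3.70, at least 1.65-fold) and the proton channel Hvcn1 (5.80 against 4.15, at least 1.13-fold). On the LncGata6 mutant array 1 was higher, Rac2 (7.80 against 5.81, 3.98-fold). Rac1, the Rac GTPase of most cells, was readable on all 4 arrays, from 7.02 on the Ehf knockout to 8.05 on the LncGata6 mutant array. The paralogues Duox1 (2.99 to 3.93) and Duoxa1 (2.88 to 3.25), which lie next to the Duox2 locus, and Nox3 (1.61 to 1.97) stayed under the limits on every array.

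Among haem peroxidases and nitric oxide synthases, 0 of 6 measured genes were called in either of the first 2 comparisons. On the Ehf knockout array 2 were higher than on the wild-type stem array. Mpo, the neutrophil enzyme that uses hydrogen peroxide to make hypochlorous acid, read 8.00 against 3.03 (at least 5.19-fold). Epx, its eosinophil relative, read 5.50 against 2.94, which was too dim for a fold. Nos2, the inducible nitric oxide synthase, read 3.07, 5.37, 6.01 and 3.09 over the 4 arrays in the usual order, and only the LncGata6 mutant value was readable.

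Of 22 measured genes that remove hydrogen peroxide or supply glutathione, 10 were lower on the wild-type stem array than on the non-stem array. A further 12 were not called and 0 were higher, with a median difference of -1.06. Over all genes 7.28% were lower and 3.03% higher. Gpx2 was called higher in the same comparison. The plasma peroxidase Gpx3, a kidney product, was 35.4-fold lower. Gclc, which makes the first intermediate of glutathione, was 10.3-fold lower, catalase (Cat) 10.2-fold and the general peroxidase Gpx1 5.35-fold. Kidney and liver markers were high on the same non-stem array, and their part in these differences was not tested.

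Between each mutant and the wild-type stem array fewer of these 22 were called than between the wild-type stem and non-stem arrays. Over all genes 5.13% were called for the LncGata6 mutant and 5.91% for the Ehf knockout. On the LncGata6 mutant array Srxn1, which repairs peroxiredoxins, was 3.07-fold higher and Gpx1 was 2.66-fold lower, with the other 20 not called. On the Ehf knockout array 3 were lower and 0 higher, namely Txnrd1, a thioredoxin reductase (2.52-fold), Srxn1 (at least 1.72-fold) and the glutathione synthetase Gss (at least 1.44-fold). Gpx1 read 11.3, 8.91, 7.50 and 9.82 over the 4 arrays and was thus lowest on the LncGata6 mutant array.

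Of 12 measured genes of the NRF2 pathway and of redox stress, which include NRF2 itself and its inhibitor Keap1, 6 were lower and 0 higher on the wild-type stem array than on the non-stem array. They were led by the glutathione transferase Gstm1 (16.1-fold) and included Hmox1 (4.02 against 6.69, at least 2.10-fold). The ferritin chains Ftl1 (5.23-fold) and Fth1 (4.11-fold) were also among them. The kidney tubule and hepatocyte markers that were lower in the same comparison move with them, and so do the neutrophil and macrophage markers with the next values of the Ehf knockout array; neither part was tested. On the LncGata6 mutant array 0 of 12 were called against the wild-type stem array, with a median of 0.07. On the Ehf knockout array the haem oxygenase Hmox1 (8.23 against 4.02, at least 6.10-fold) and Ftl1 (2.13-fold) were higher and Txnip, an inhibitor of thioredoxin, was 2.17-fold lower. Nfe2l2, which encodes NRF2, ranged from 6.34 to 6.65 over the 4 arrays.

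Epithelial defence genes named with Duox2 in the gut were described from a list of 14. On the wild-type stem array 4 were higher than on the non-stem array and 2 lower (Saa1 and Lcn2). The non-stem values of these 2 (5.60 and 5.62) were too dim for a fold. The antimicrobial lectins Reg3g and Reg3b were 10.7-fold and 5.59-fold higher, the chemokine Ccl28 at least 3.23-fold and the antibody transporter Pigr 2.18-fold. On the LncGata6 mutant array 2 were higher than on the wild-type stem array. Ido1, an interferon-induced enzyme of tryptophan breakdown, read 8.02 against 3.46 (at least 5.28-fold), and the acute-phase gene Saa1 read 5.68 against 4.56 (at least 1.04-fold). Ccl28 was 2.43-fold lower there. Reg3b and Reg3g, which like Duox2 are known to be induced by gut microbes, differed by 0.73 and 0.78 and were not called.

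On the Ehf knockout array 5 of these 14 were lower than on the wild-type stem array and 1 was higher. Reg3b was at least 54.4-fold lower, Pigr at least 38.9-fold, Reg3g at least 17.3-fold, Ccl28 at least 3.16-fold and the inflammasome gene Nlrp6 at least 1.87-fold. Lipocalin 2, Lcn2, which is also a neutrophil granule product, read 9.67 against 4.29 (at least 16.5-fold). The 10 general epithelial markers were all lower on that array by a median of at least 9.16-fold, with Epcam at 3.78 against 9.70, and their part in the lower values of Duox2, Duoxa2 and Gpx2 was not tested.

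**Figure D4:**
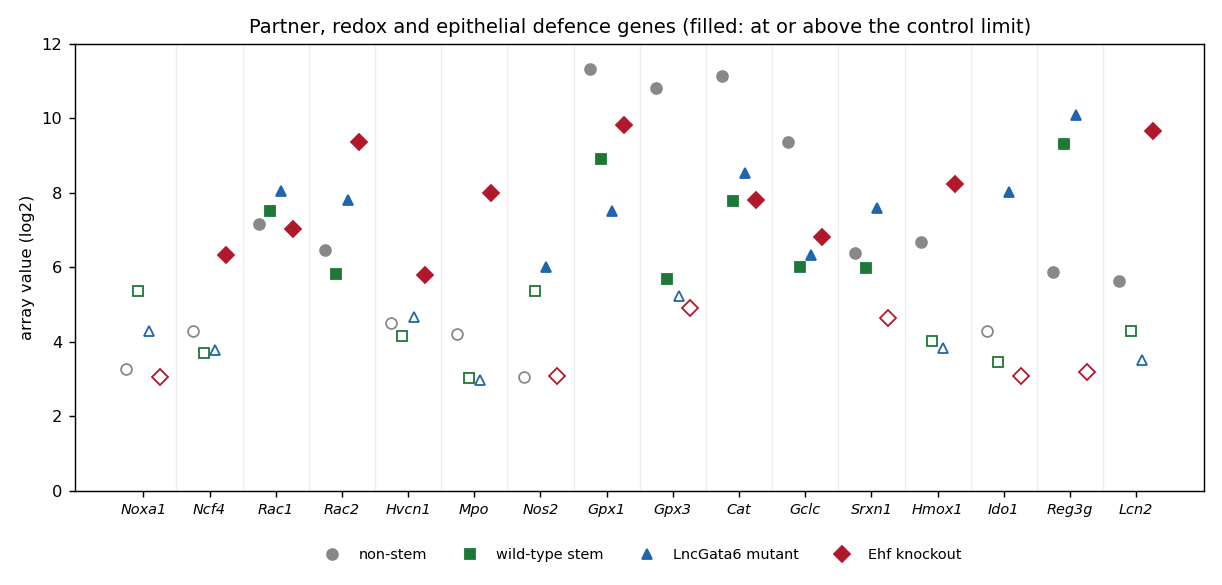
Array values (log2, vertical axis) of 16 partner, redox and defence genes on the 4 arrays, taken from the listed genes after their values were seen. Filled symbols reach the control limit. Rac2, Ncf4, Hvcn1, Mpo, Hmox1 and Lcn2 peak on the Ehf knockout array, Ido1, Srxn1 and Nos2 on the LncGata6 mutant array, and Gpx1, Gpx3, Cat and Gclc on the non-stem array.

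Between the 2 mutants, the LncGata6 array was above the Ehf array by at least 8.83-fold for Duox2, at least 11.1-fold for Duoxa2 and at least 2.30-fold for Gpx2. It was lower for Cybb by at least 17.8-fold, for Ncf1 by 6.09-fold and for Cyba by 3.26-fold. Nox1 and Noxo1 differed by 0.85 and 1.21 under the limits, and Nox4 by -0.23. Of the partners, Rac1 was 2.05-fold higher and Rac2, Ncf4 and Hvcn1 were lower, while Nos2 was at least 1.76-fold higher and Mpo at least 6.44-fold lower.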

How the data were processed

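The 4 arrays were grouped by title, with 1 in each group. The deposited table holds log2 values made by the authors, and the submitters' processing notes name Affymetrix Power Tools and RMA, without versions. As a method, RMA corrects background, scales arrays to each other and summarises probes, which compresses low differences. The deposited values were still not fully on a common scale. The median of named genes ran from 3.24 (Ehf knockout) to 3.55 (non-stem), and the 75th percentile from 4.61 to 5.26 on the same arrays. The scale was read from the values (-0.183 to 13.1).

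Of 72688 features, 31438 carried 1 current symbol after updating 1969 through a RefSeq table (GRCm38.p6), which gave 30792 genes, and 1312 with several symbols were left out. A gene with several features used the one with the highest mean. Control limits came from 5222 negative controls, because the 75th percentile of the array, kept as an alternative, lay under them on 3 arrays. Listed genes with no named feature (Cybc1, Prdx1, Prdx5, Prdx6, Gsta1 and G6pdx among them) were not analysed here. No coordinates of array features were used. Promoter sequences are those of RefSeq (GRCm38.p6), and all 9 members matched.

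Where a list's median is given as "at least", each value under its limit was set to that limit. No test was possible with 1 array per group, and precision is limited by that number. Alternatives used limma 3.58.1 (R 4.3.3) for quantile and cyclic loess scaling, and pandas 2.3.3 otherwise. Named genes were the members, the 3 nearest in profile to each readable member (predicted and small RNA genes, olfactory and vomeronasal receptors and antigen receptor segments left out), up to 4 called genes of each pathway list and comparison, and up to 2 markers of a list. Other genes named, among them Lgr5, Noxa1, Rac1, Nos2, Nfe2l2, Csf1r, Epcam, Cps1 and the paralogues, were chosen after their values were seen. The members and lists were chosen with earlier results of these data known.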

Additional observations from a re-analysis of the deposited data

How the results depend on the processing

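Each of the 36 differences of the 9 members over the 4 comparisons kept its call under median centring, quantile normalization and cyclic loess. The same held with the 75th percentile of the array as the limit. Taking the median of features could not change a member, because each matched 1 feature. No direction turned among called differences. With the 99th percentile of the negative controls as the limit, 12 calls ended and the members called fell from 5 to 0 between the wild-type stem and non-stem arrays and from 6 to 2 between the Ehf knockout and wild-type stem arrays, since few values reach that limit (7.71 to 8.20). All genes called were then 835, 506, 330 and 738 in the order of the 4 comparisons, beside 3173, 1581, 1820 and 2626. At 4-fold, 5 calls ended, the members called between the LncGata6 mutant and wild-type stem arrays fell from 3 to 1 (Duoxa2), and all genes called were 1374, 412, 732 and 1142. At 1.5-fold all genes called were 5063, 3148, 3196 and 4077, and Ncf1 (-0.85) was called lower on the wild-type stem than on the non-stem array. Scaling moved the split over all genes, from 932 higher and 2241 lower to 1314 and 1828 with quantile normalization for wild-type stem against non-stem. For the LncGata6 mutant against wild-type stem it went from 797 and 784 to 979 and 553 with cyclic loess. For the Ehf knockout it went from 667 and 1153 to 811 and 882 with median centring, 887 and 799 with quantile normalization and 884 and 800 with cyclic loess. For the LncGata6 mutant against the Ehf knockout, 1688 and 938 became 1353 and 1166 with quantile normalization. No paired analysis was possible because each group has 1 array and the labels give no replicate numbers. Signal over background limits Nox1 and Noxo1, which no array could read, and every fold given as "at least".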
